A study of Sus scrofa with 24 samples.

Results

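The genes described here are 10 components of the machinery that adds, reads and removes N6-methyladenosine (m6A), picked by gene name out of the 20674 genes counted in the gut of pregnant sows. They comprise the 5 YTH-domain readers YTHDC1, YTHDC2, YTHDF1, YTHDF2 and YTHDF3, the 3 writer subunits METTL3, METTL14 and WTAP, and the 2 erasers ALKBH5 and FTO. All 10 were present in the count table. The set was put together around YTHDC2, which had been chosen from its difference with N-carbamylglutamate in the ileum, so values of that contrast are given below as a description and support nothing.

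m6A is the most common internal modification of messenger RNA. METTL3 carries the catalytic site of the writer, METTL14 is its structural partner that holds the RNA, and WTAP is the adaptor that places the pair in nuclear speckles. FTO and ALKBH5 are oxygenases that take the methyl group off again. YTHDC1 reads the mark in the nucleus, in splicing and export, the YTHDF proteins read it in the cytoplasm, in translation and decay, and YTHDC2 is an RNA helicase known above all for its role in germ cells entering meiosis. In the intestine the pathway is known mainly from work on epithelial stem cells and on inflammation.

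RNA came from the ileum and the colon of female pigs at day 114 of gestation. The diets were a low-fibre feed with 3.73% crude fibre (LF), the same feed with 0.05% N-carbamylglutamate (LN), a high-fibre feed (HF) at 7.46% crude fibre, and this second feed plus 0.05% N-carbamylglutamate (HN), each given from breeding to the end of gestation. N-carbamylglutamate, written NCG from here on, mimics the natural activator of the enzyme that starts the urea cycle. Each of the 8 combinations of tissue and diet had 3 libraries, 24 in all. No breed or age is given for the animals, and nothing in the labels ties the 3 libraries of each group to separate sows, so the p-values measure the spread between these libraries.

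Total counts were between 11951729 and 19896941 per library, and every one of the 10 genes passed the filter on low counts in both tissues; the smallest count of any of them was 99, for FTO. Sucrase-isomaltase (SI), a small intestinal enzyme, was at 108 to 1365 CPM in the ileum and at 0.48 to 65.6 in the colon. CPM are read counts scaled to a common library size. The hindgut gene HOXB13 was below 1 CPM in 12 of 12 ileum libraries and in 4 colon libraries. Other markers went against their tissue: the ileum marker SLC10A2 had a median of 0.23 CPM in the ileum and 6.57 in the colon. The colon marker AQP8 had medians of 111 in the ileum and 95.2 in the colon. The medians of the remaining ileum and colon markers followed their tissue. FABP6, the bile acid carrier of the distal ileum, was above 500 CPM in only 3 ileum libraries, LF 1, HF 2 and HN 2. The mean log2 CPM of 10 smooth muscle markers ran from 6.34 to 11.3 in the ileum and from 6.58 to 12.6 in the colon, and colon libraries LF 2 and HN 1 had the lowest means of 9 enterocyte markers, 2.74 and 4.94. In the colon the muscle markers were at 10.6 to 12.6 in the 3 LF libraries and at 7.01 to 7.42 in the 3 HF libraries. They spread widely in the other diets, from 6.58 to 11.5 in LN and from 6.86 to 12.1 in HN. Whether they followed the diet was not tested. In bulk tissue, fewer cells of a type and less RNA per cell cannot be told apart.

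The genes lie on 8 pig chromosomes of the build Sscrofa11.1. Among the readers, YTHDC1 is on chromosome 8 at 66086528 to 66122717, YTHDC2 on chromosome 2 at 118003402 to 118092176, YTHDF1 on chromosome 17 at 62329302 to 62341312, YTHDF2 on chromosome 6 at 85717147 to 85756750 and YTHDF3 on chromosome 4 at 70887101 to 70928839. The writer genes METTL3, METTL14 and WTAP are on chromosome 7 at 77661945 to 77679459, chromosome 8 at 105019539 to 105053603 and chromosome 1 at 7622544 to 7651732. The eraser genes ALKBH5 and FTO are on chromosome 12 at 60507662 to 60530239 and chromosome 6 at 31177112 to 31564674. METTL3 overlaps TOX4 on the opposite strand by 55 bases, and WTAP overlaps LOC102157641 on the opposite strand by 1093 bases. Whether reads were counted by strand is not given in the sources used here, so reads in those 2 overlaps cannot be assigned with certainty; the other 8 genes overlap no annotated gene.

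Scaled for gene length, the 10 genes spanned a modest range. YTHDC1 had the highest level, at 27.8 ± 6.50 CPM per kilobase (SD, n = 24), followed by WTAP at 25.1 ± 3.11, METTL3 at 18.5 ± 3.32, YTHDF3 at 18.2 ± 3.01 and ALKBH5 at 17.2 ± 3.64. METTL14 followed at 10.9 ± 2.74, FTO at 9.51 ± 3.12, YTHDF1 at 6.74 ± 1.37, YTHDF2 at 6.20 ± 0.562 and YTHDC2 at 5.33 ± 2.09 (SD, n = 24). Neighbours in this order were often not separated: YTHDC1 was above WTAP in only 13 of 24 libraries, METTL3 above YTHDF3 in 13, YTHDF1 above YTHDF2 in 16 and YTHDF2 above YTHDC2 in 15. The clearer steps lay between WTAP and METTL3, between ALKBH5 and METTL14 and between FTO and YTHDF1, each kept in 22 of 24 libraries. Levels per length take the deposited gene length at face value, which is 12398 bases for YTHDF2 and 1542 bases for FTO.

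**Figure D1:**
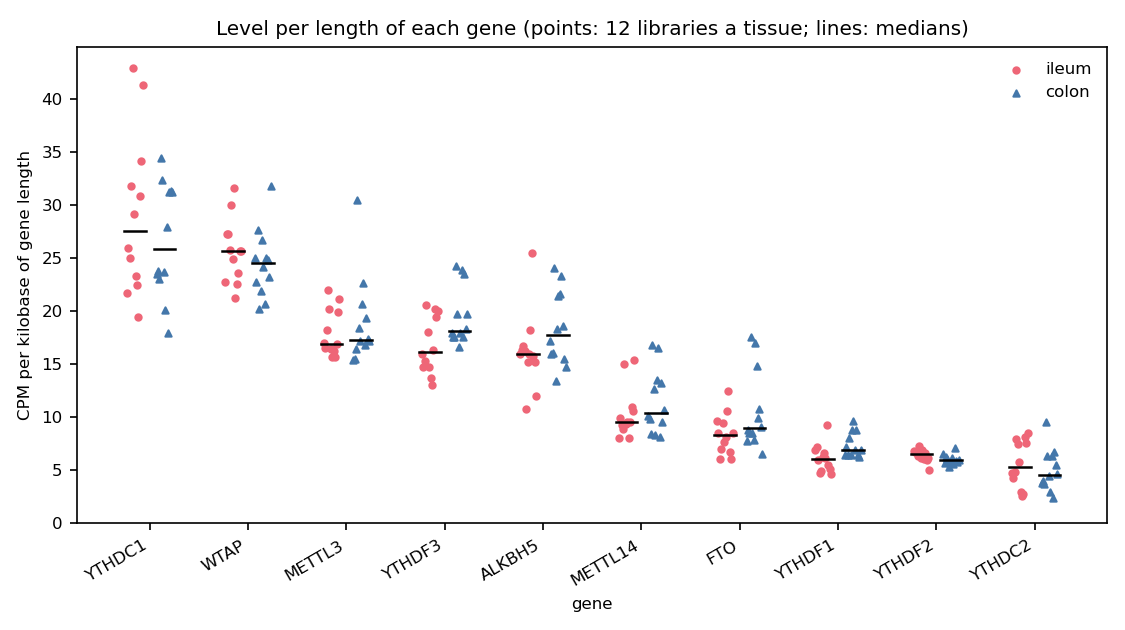
Level of each gene in CPM per kilobase (vertical axis), with 1 point per library, 12 ileum libraries as circles and 12 colon libraries as triangles, and a line at each median. YTHDC1 and WTAP sit at the top and YTHDF1, YTHDF2 and YTHDC2 at the bottom, where YTHDC2 spreads from 2.44 to 9.54.

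The gene with the lowest level varied most between libraries. YTHDC2 had a coefficient of variation of 39.1% over the 24 libraries and differed 3.91-fold between its lowest and highest library. FTO came next at 32.8% and METTL14 at 25.1%, while the decay-promoting reader YTHDF2 was the steadiest at 9.06% and differed 1.45-fold. These values pool tissues and diets. That of YTHDC2 therefore includes the ileum difference with NCG by which it was chosen, and its first place partly restates that choice. In the 12 colon libraries alone, which that contrast did not use, YTHDC2 was at 39.3% and FTO at 35.2%. Variation within the diet groups was not ranked.

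**Figure D2:**
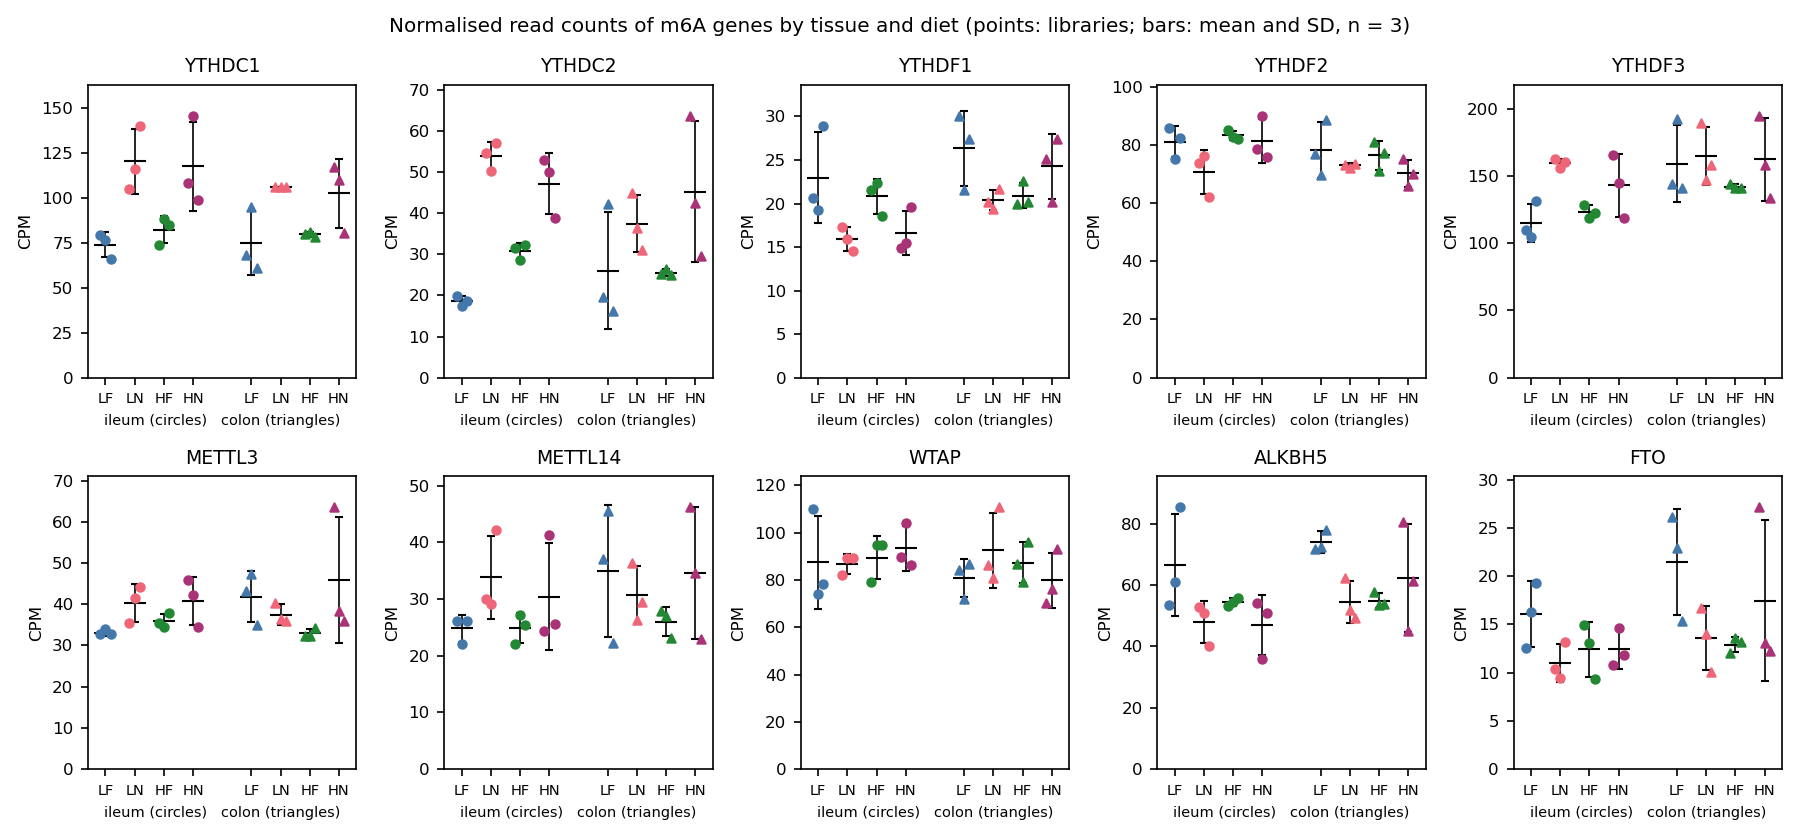
CPM of the 10 genes (vertical axis of each panel, from 0) in the 4 diets of the ileum (circles) and the colon (triangles); points are libraries and bars are the mean and SD of 3. The 3 LF libraries of the ileum sit below 20 CPM for YTHDC2, and the 6 ileum libraries with NCG sit between 38.8 and 57.1.

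In the ileum, YTHDC2 was lowest in the LF libraries and higher in those with NCG, with HF between. It was at 19.8, 17.3 and 18.7 CPM in the LF libraries and at 31.6, 28.6 and 32.3 CPM in the HF libraries. With NCG it was at 54.6, 50.3 and 57.1 CPM in the LN libraries and at 52.9, 50.0 and 38.8 CPM in the HN libraries. The 6 libraries with NCG lay above the 6 without it. Group means were 18.6 ± 1.24, 30.8 ± 1.96, 47.2 ± 7.45 and 54.0 ± 3.42 CPM for LF, HF, HN and LN (SD, n = 3). The average log2 change with NCG was 1.08 ± 0.11 (SE), a 2.12-fold difference; it was 1.55 ± 0.16 on low fibre (LN against LF) and 0.62 ± 0.16 on high fibre (HN against HF). These last comparisons use separate controls, and the difference between them, the interaction, was -0.93 (95% interval -1.41 to -0.44), with an adjusted p of 0.872 over 15103 genes by edgeR's quasi-likelihood test. On high fibre without NCG the log2 change was 0.73 ± 0.16 (HF against LF), from the same LF libraries that serve as controls for LN. By edgeR, HF against LF was called for 0 of 10 genes, beside 0% of 15103 genes.

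YTHDC1, the nuclear reader, showed the other gap between ileum libraries with and without NCG. It was at 79.2, 76.4 and 66.1 CPM in LF, at 73.8, 88.2 and 85.1 in HF, at 105, 116 and 140 in LN and at 108, 146 and 99.0 in HN. LN 3 and HN 2, the highest of their groups, are the libraries whose cell type markers stand apart below. The lowest library with NCG was above the highest without it, and the average log2 change was 0.62 ± 0.14 (SE), a 1.53-fold difference. By fibre level the log2 change of YTHDC1 was 0.71 ± 0.19 in LN against LF and 0.52 ± 0.19 in HN against HF. YTHDC1 and YTHDC2 were the 2 of 10 genes past an adjusted p of 0.05 for the NCG average in the ileum, both higher, beside 5.85% of all genes; the same 2 genes had libraries with NCG that did not overlap those without, beside 6.16% of all genes. The call of YTHDC1 was lost without LF 2, LF 3, HF 1, HF 3 or LN 3, singly (adjusted p 0.0556 to 0.0855 by edgeR), with a replicate block (0.0506) and without the 3 FABP6-rich libraries (0.0585). Because the contrast was used in choosing the set, nothing is read from these counts.

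None of the 3 YTHDF readers passed the threshold for NCG in the ileum by edgeR. YTHDF3 was at 110, 104 and 131 CPM in LF and at 128, 118 and 123 in HF, against 163, 156 and 160 in LN and 165, 145 and 119 in HN, so that only HN 3 reached into the range without NCG; the log2 change was 0.35 ± 0.12 (SE, adjusted p = 0.123 by edgeR). Under the alternatives YTHDF3 was called by DESeq2 (adjusted p = 0.00818) and with the means of muscle and enterocyte markers as covariates (0.0436 by edgeR). YTHDF1, a reader tied to translation, had its lowest ileum values with NCG, at 17.3, 15.9 and 14.5 CPM in LN and 14.8, 15.5 and 19.6 in HN against 18.5 to 28.9 CPM in LF and HF. The ranges met only through HN 3, and the log2 change was -0.42 ± 0.15. YTHDF2 ran from 62.0 to 90.1 CPM with NCG and from 75.3 to 85.9 without, a log2 change of -0.11 ± 0.10.

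None of the 5 writers and erasers passed the threshold for NCG in the ileum, with adjusted p-values from 0.230 to 0.909 by edgeR. METTL14 had a log2 change of 0.38 ± 0.17 (SE) with NCG in the ileum, METTL3 of 0.24 ± 0.11 and WTAP of 0.03 ± 0.13, while ALKBH5 had -0.34 ± 0.15 and FTO -0.27 ± 0.19. METTL14 was highest in LN 3 at 42.2 CPM and HN 2 at 41.2, and the other 10 ileum libraries lay between 22.1 and 30.03. Its log2 change was 0.28 without LN 3 and 0.23 without HN 2. ALKBH5 was at 35.9 to 54.2 CPM with NCG and at 53.3 to 85.3 without, with an overlap of less than 1 CPM. Over the 10 genes, 6 log2 changes were positive and 4 negative, with a median of 0.14; over all 15103 genes the median was -0.07.

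The length slope of the ileum libraries moved with NCG, with little overlap, while 2 marker lists overlapped widely. The slope of log2 CPM on log2 gene length in each library was -0.05 to 0.15 with NCG and -0.14 to -0.04 without, and YTHDC2, at 6681 bases, is longer than 79.3% of the genes tested. With that length trend removed, the log2 change of YTHDC2 was 0.91 and that of YTHDC1 was 0.63. Smooth muscle markers averaged 6.34 to 9.43 log2 CPM with NCG and 6.78 to 11.3 without, and enterocyte markers 5.38 to 9.97 and 8.16 to 9.91. With both marker means as covariates the log2 changes were 1.10 for YTHDC2 and 0.60 for YTHDC1. Without the 3 libraries rich in FABP6 they were 1.09 and 0.61.

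LN 3 and HN 2 stood apart in cell type markers. In LN 3 the mean of 5 adipocyte markers was 8.60 log2 CPM, against -0.22 to 2.24 in the other 11 ileum libraries, with ADIPOQ, a hormone of fat cells, at 1127 CPM and a proliferation marker mean of 3.43, the lowest of the 12. HN 2 had the lowest enterocyte mean, 5.38, and the highest B cell mean, 7.37. Without LN 3 the log2 change with NCG was 1.06 for YTHDC2 (adjusted p = 0.00232 by edgeR) and 0.55 for YTHDC1 (0.0556); without HN 2 it was 1.06 (0.00552) and 0.52 (0.0399). The part of these cell types in the differences was not tested.

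**Figure D3:**
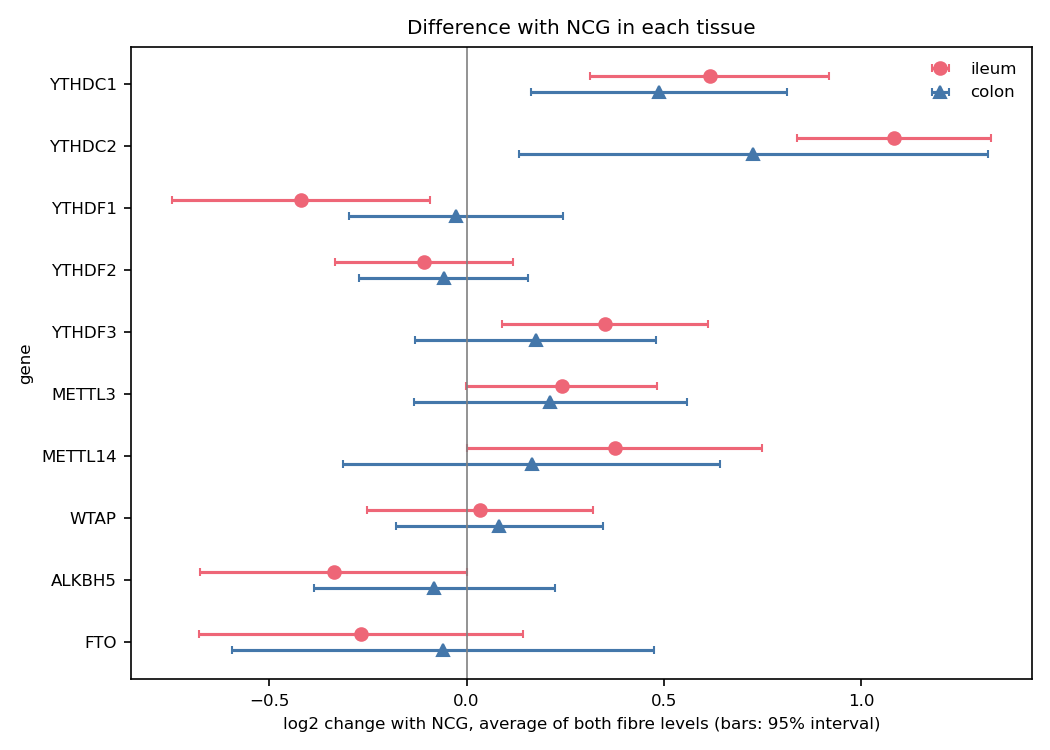
Log2 change with NCG, averaged over both fibre levels (horizontal axis), for the 10 genes in the ileum (circles) and the colon (triangles), with 95% intervals. YTHDC2 and YTHDC1 lie to the right in both tissues, at 1.08 and 0.62 in the ileum and at 0.73 and 0.49 in the colon, and YTHDF1 lies at -0.42 in the ileum and -0.03 in the colon.

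The ileum contrast that chose YTHDC2 used no colon library, so NCG was tested in the colon, although the set was drawn up with earlier results of these libraries known. If ileum and colon libraries share sows, the colon values are not independent of that choice. In the colon 0 of 10 genes passed an adjusted p of 0.05 by edgeR's quasi-likelihood test, beside 0% of 15075 genes; 2 of the 10 and 1863 of all genes had an unadjusted p under 0.05. DESeq2 and limma-voom also called 0 of the 10. The pair with an unadjusted p under 0.05 was YTHDC1 and YTHDC2, both in the same direction as in the ileum. The other 8 genes had log2 changes between -0.08 and 0.21, and the median of the 10 was 0.12 beside 0.06 for all genes.

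YTHDC2 in the colon was at 19.5, 42.4 and 16.3 CPM in LF, 25.2, 26.5 and 24.9 in HF, 44.9, 36.5 and 31.1 in LN and 63.7, 42.4 and 29.6 in HN. The groups overlapped through LF 2, the library with the lowest enterocyte marker mean; the other 5 libraries without NCG ended at 26.5 CPM, below the lowest library with NCG at 29.6. Without LF 2 the ranges of 3.85% of all genes did not overlap, and with it those of 1.11%. The log2 change was 0.73 (95% interval 0.13 to 1.32, adjusted p = 0.328 by edgeR). Leaving out LF 2 brought it to 0.99 with an adjusted p of 0.0492, where 292 of 15274 genes were called, and the 11 other single omissions gave adjusted p-values up to 0.644. Without both LF 2 and HN 1 it was 0.83 with an adjusted p of 0.0307, and 1 of 10 genes was then called beside 3.06% of all genes. Single omissions gave log2 changes from 0.56 to 0.99, and the 8 other alternatives from 0.55 to 0.83. The length slope of the colon libraries was -0.06 to 0.28 with NCG, highest in HN 1, and -0.13 to 0.18 without, highest in LF 2. With the length trend removed, the lowest adjusted p of the 10 genes was 0.353 by edgeR.

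YTHDC1 in the colon was at 68.3, 95.04 and 61.0 CPM in LF and at 79.8, 80.9 and 78.3 in HF. With NCG it was at 106 CPM in each LN library and at 117, 110 and 80.6 in HN. LF 2 was again the highest library without NCG, and HN 3 was the one library with NCG inside the range without it. The log2 change was 0.49 (95% interval 0.16 to 0.81, adjusted p = 0.264 by edgeR).

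The calls in the colon changed when marker levels entered the fit. With the mean levels of the smooth muscle and enterocyte markers as covariates, YTHDC2 had a log2 change of 0.77 ± 0.10 (SE) with an adjusted p of 0.00200, and YTHDC1 had 0.51 ± 0.09 with an adjusted p of 0.00855. The 2 estimates hardly moved from those without covariates, and their standard errors fell from 0.27 and 0.15. In that fit 2 of 10 genes were called, both higher, beside 9.37% of all genes. The covariates are expression means of the same libraries, so the fit describes these libraries and does not separate cells from RNA per cell.

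**Figure D4:**
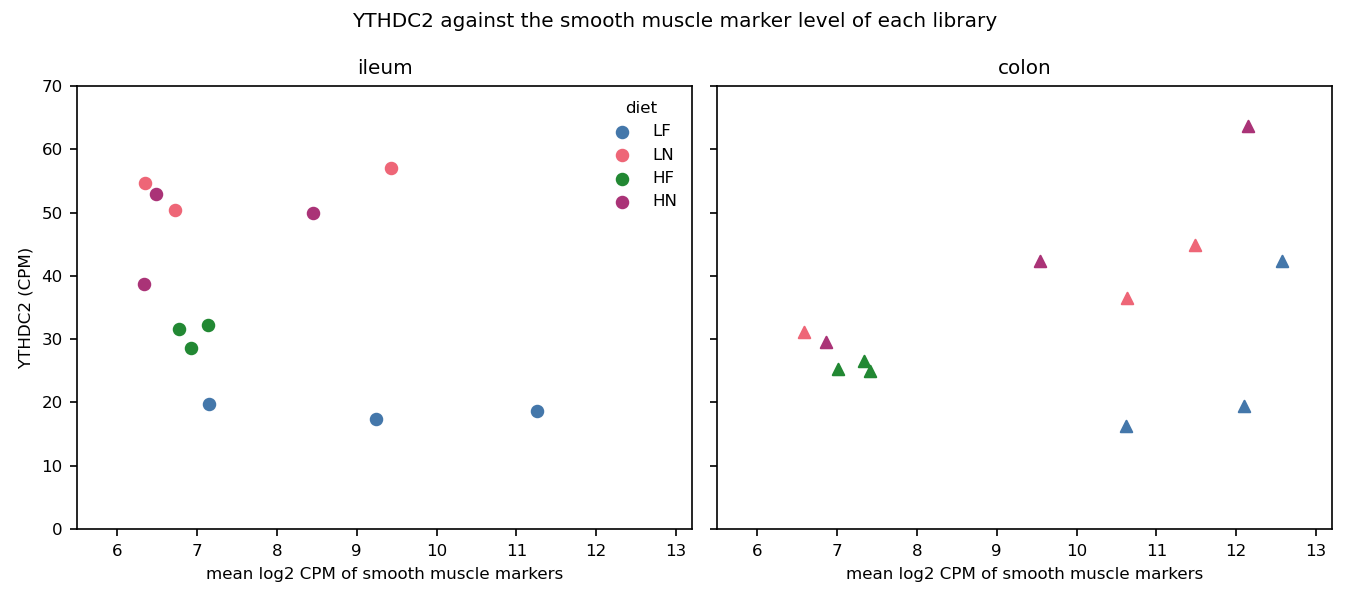
CPM of YTHDC2 (vertical axis) against the mean log2 CPM of 10 smooth muscle markers (horizontal axis) in the 12 ileum libraries (left) and the 12 colon libraries (right), coloured by diet. In the colon, LF 2 at 42.4 CPM lies at the far right with a marker mean of 12.6, and the libraries with NCG lie above those without it at like marker levels.

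The 2 tissues were compared directly for the effect of NCG, as a description because the ileum contrast enters it. The log2 change of YTHDC2 was smaller in the colon than in the ileum by 0.40 (95% interval of the colon minus ileum difference -1.01 to 0.21), and that of YTHDC1 differed by -0.17 (-0.58 to 0.25). By edgeR 0 of the 10 genes were called, beside 0% of 15675 genes, and 0 of the 10 and 469 of all genes had an unadjusted p under 0.05; DESeq2 called 0 of the 10. The interval for YTHDC2 includes no difference as well as a colon effect less than that of the ileum by 1 log2 unit.

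Fibre was tested in the ileum over both NCG levels, and 0 of 10 genes passed, beside 0% of 15103 genes; 794 genes and 1 of the 10 had an unadjusted p under 0.05, and DESeq2 called 0 of the 10. The one was YTHDC2, with a log2 change of 0.27 (95% interval 0.02 to 0.51, adjusted p = 0.802 by edgeR). Its libraries on high fibre ran from 28.6 to 52.9 CPM and those on low fibre from 17.3 to 57.1. That average joins opposite directions. Without NCG its mean was higher on high fibre (30.8 CPM in HF, 18.6 in LF), and with NCG it was lower (47.2 in HN, 54.0 in LN). The other 9 genes had log2 changes between -0.16 (ALKBH5) and 0.12 (YTHDF2). For FTO, the eraser first known from body mass genetics, the interval was -0.51 to 0.32, and for METTL3 it was -0.17 to 0.31.

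In the colon the fibre average also left 0 of 10 genes past the threshold, beside 0% of 15075 genes; 0 of the 10 and 692 of all genes had an unadjusted p under 0.05, and DESeq2 called 0 of the 10. Log2 changes ran from -0.23 for FTO (95% interval -0.76 to 0.31) to 0.08 for YTHDC2 (-0.51 to 0.67). With the marker covariates YTHDC2 had a log2 change of 0.57 (0.30 to 0.84) with an adjusted p of 0.427, so the estimate moved with the markers and was not called. The difference in the fibre effect between the tissues was called for 0 of 10 genes beside 0% of 15675 genes, with 0 of the 10 and 437 of all genes at an unadjusted p under 0.05. Its widest shift among the 10 was -0.22 for YTHDF2 (95% interval -0.49 to 0.06).

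The interaction of fibre and NCG was called for 0 of 10 genes in each tissue, beside 0% of all genes in each. In the ileum 1 of the 10 (YTHDC2, above) and 672 of all genes had an unadjusted p under 0.05, and DESeq2 called that 1 beside 26 of 15103 genes. In the colon the numbers were 2 of the 10 and 2264 of all genes, and DESeq2 called 0 of the 10. The 2 colon genes were FTO at 1.08 (95% interval 0.01 to 2.15) and YTHDF1 at 0.57 (0.03 to 1.11), with adjusted p-values of 0.330 and 0.328 by edgeR. FTO was at 26.1, 22.9 and 15.4 CPM in LF, 16.7, 14.0 and 10.04 in LN, 12.02, 13.6 and 13.1 in HF and 27.1, 13.1 and 12.2 in HN. Its 3 highest colon libraries, HN 1, LF 1 and LF 2, were also the 3 with the highest smooth muscle means, and with the marker covariates its interaction was 0.08 (-0.63 to 0.79). The colon interaction of YTHDC2 also fell with the covariates, and its sign changed. It was 0.29 (-0.89 to 1.48) without them and -0.89 (-1.44 to -0.35, adjusted p = 0.805 by edgeR) with them.

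HN against LF joins both diet factors. In the ileum, as a description, YTHDC2 had a log2 change of 1.35 ± 0.16 (SE) and was the 1 of 10 genes called, beside 1.88% of all genes; YTHDC1 had 0.68 ± 0.19 and ALKBH5 -0.50 ± 0.22. The call of YTHDC2 was lost without HN 1, HN 2, LF 1, LF 2 or LF 3, singly (adjusted p 0.0531 to 0.117 by edgeR), with a replicate block (0.0630), in the 6 libraries alone (0.0728) and without the FABP6-rich libraries (0.110). In these 8 fits 0 or 1 of all genes were called. Of the 38 further m6A genes described below, CPSF6 was the 1 called there, at 0.96 ± 0.19. In the colon 0 of 10 were called, beside 0% of all genes; 1 of the 10 and 1348 of all genes had an unadjusted p under 0.05, and DESeq2 called 0 of the 10. YTHDC2 had a log2 change of 0.81 there (95% interval -0.03 to 1.65) and YTHDC1 0.47 (0.01 to 0.93), with adjusted p-values of 0.568 and 0.550 by edgeR. With the marker covariates they were 1.34 and 0.68 with adjusted p-values of 0.00414 and 0.0226, 2 of 10 genes called beside 7.76% of all genes.

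Averaged over diets, the m6A genes differed little between colon and ileum. Only YTHDF1 passed the threshold, 1 of 10 genes beside 28.4% of 15675 genes. YTHDF1 was at 22.98 ± 3.61 CPM in the colon and at 19.1 ± 4.07 in the ileum (SD, n = 12), with ranges of 19.4 to 30.1 and 14.5 to 28.9 that overlapped. Its log2 change was 0.26 ± 0.09 (SE, adjusted p = 0.0350 by edgeR). That fit pairs no ileum library with a colon library. With a block by diet and replicate number the adjusted p was 0.0518 by edgeR. The call held in 13 of 24 fits that left out 1 library, with adjusted p-values up to 0.0638, and it was lost without the 3 FABP6-rich ileum libraries (adjusted p = 0.0741). Leaving out any of 11 libraries ended it: HN 1, HF 1, HF 3, LN 2, LF 1 or LF 2 of the ileum, or HN 3, HF 2, LN 1, LN 3 or LF 1 of the colon. By diet the difference was 0.18 in LF, 0.39 in LN, -0.02 in HF and 0.48 in HN, none of them called.

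The other 9 genes had tissue differences between -0.13 (YTHDC1) and 0.30 (FTO). YTHDF3 was 0.20 higher in the colon (95% interval 0.03 to 0.38, adjusted p = 0.0764 by edgeR), and DESeq2 called it with an adjusted p of 0.0188. For METTL3 the interval was -0.15 to 0.24 and for WTAP -0.28 to 0.09. With the marker covariates 4 of 10 genes were called, beside 30.5% of all genes: YTHDF1 higher in the colon at 0.33, and YTHDC2, YTHDC1 and METTL14 lower at -0.61, -0.43 and -0.37. For METTL14 this reversed the sign, from 0.12. Smooth muscle markers had a median of 10.1 log2 CPM in the colon and 7.03 in the ileum, so the covariates and the tissue cannot be fully told apart.

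The wider m6A pathway was followed in 40 further genes, grouped as other writers, other binding proteins, effectors of the YTH proteins and suppliers of the methyl donor. Of these, 38 were tested in each tissue. In the ileum 7 were higher and 3 lower with NCG (adjusted p under 0.05, edgeR), beside 5.85% of all genes called. Among 11 effectors, CPSF6, a cleavage and polyadenylation factor, changed by 0.79 ± 0.14 (SE, adjusted p = 0.00647), XRN1, the exonuclease that YTHDC2 binds, by 1.08 ± 0.20 (0.00961) and SRSF10 by 0.70 ± 0.15; MAGOH, of the exon junction complex, changed by -0.59 ± 0.12 (adjusted p = 0.0134) and had been seen in earlier results before it was listed. Of 14 other binding proteins, FXR1 (1.25 ± 0.23, adjusted p = 0.00906), FMR1 (0.86 ± 0.19) and LRPPRC (0.62 ± 0.14) were higher and none was lower.

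Among 11 other writers, VIRMA, the scaffold of the writer complex, was higher by 0.69 ± 0.17 (SE, adjusted p = 0.0445) in the ileum with NCG. PCIF1, which methylates the cap-adjacent adenosine, was lower by 0.42 on the log2 scale (-0.42 ± 0.09, adjusted p = 0.0273), and RBM15B, an RNA-binding subunit, had -0.44 ± 0.10 (0.0317). Of the 7 further genes called higher, FXR1 is 3030 bases long and the others run from 5506 (FMR1) to 13138 (CPSF6). The 3 lower are at 1104 (MAGOH), 3436 (PCIF1) and 6661 bases (RBM15B). No values with the length trend removed are given for these genes. ZC3H13 had 0.35 ± 0.12 and METTL16, the writer that controls methyl donor synthesis, -0.13 ± 0.15, neither past the threshold; the same holds for the stabilising reader IGF2BP2 at -0.28 ± 0.20 and for HNRNPA2B1 at 0.13 ± 0.15. None of the 4 methyl donor genes was called, with log2 changes from -0.49 (AHCY) to 0.37 (MTR). Of the meiotic partners of YTHDC2, MEIOC had 2 to 19 counts per library and was not tested in the ileum. RBM46 had 0 to 83 counts and reached 4.44 CPM in the ileum (LN 2) and 5.63 in the colon (HN 1). Its log2 change with NCG in the ileum was 2.69 ± 0.77 (SE, adjusted p = 0.0749 by edgeR), and its libraries with and without NCG overlapped.

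In the colon 0 of 38 were called with NCG, beside 0% of all genes; 11 of the 38 had an unadjusted p under 0.05, and DESeq2 called 3; over all 15075 genes the counts were 1863 and 497. VIRMA had a log2 change of 0.52 ± 0.28 (SE), ZC3H13 0.34 ± 0.14, IGF2BP2 0.24 ± 0.17, HNRNPA2B1 -0.18 ± 0.15 and METTL16 0.00 ± 0.26. XRN1 had 0.90 ± 0.27 and CPSF6 0.57 ± 0.18, with adjusted p-values of 0.277 and 0.288. With the marker covariates 10 of the 38 were called, beside 9.37% of all genes, XRN1 among them at 0.97 (adjusted p = 0.00144).

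**Figure D5:**
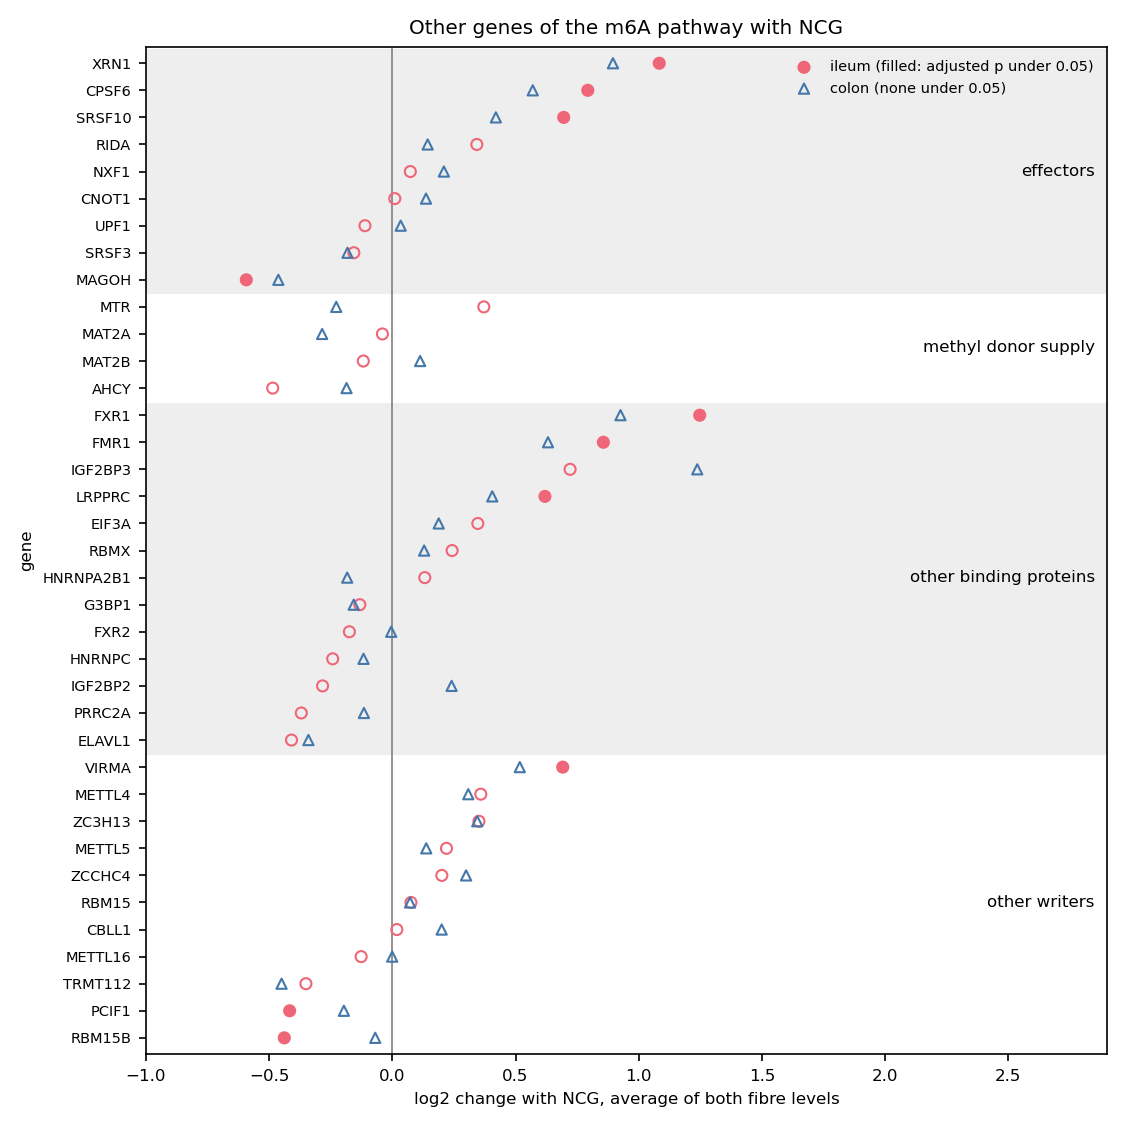
Log2 change with NCG (horizontal axis) of the 37 further m6A genes tested in both tissues, by role; circles are the ileum, filled where the adjusted p was under 0.05, and triangles the colon. FXR1, XRN1, FMR1 and CPSF6 lie to the right in both tissues, and MAGOH lies to the left at -0.59 and -0.46.

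Between the tissues 7 of 39 further genes were called, 2 higher and 5 lower in the colon, beside 28.4% of all genes. RIDA, which links YTHDF2 to cleavage of its targets, had a log2 change of -1.17 ± 0.19 (SE, adjusted p = 0.000236), the writer subunit RBM15 -0.54 ± 0.10 (0.000579) and CNOT1, scaffold of the deadenylase that YTHDF2 recruits, -0.33 ± 0.07 (0.00303), all by edgeR. LRPPRC was higher by 0.31 ± 0.10 and RBM15B by 0.20 ± 0.07. Without the 3 FABP6-rich ileum libraries 3 were called, beside 3900 of 15765 genes, and with the marker covariates 16, beside 4783 of 15675.

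By correlation of log2 CPM with YTHDC2 over the 24 libraries, the most similar of 14525 genes were VPS50 (Pearson r = 0.965), LTN1 (0.962), USP16 (0.960), FPGT (0.956) and PMS1 (0.954). The libraries share diet groups, tissue and length slopes, so these values are a description. VPS50, USP16, LTN1 and PMS1 were also among the first 5 by Spearman's rho, with PHF3. Within the ileum the first were LTN1 (0.983), PGAP1 (0.979) and DPP8 (0.977). Within the colon PMS1 was first (0.976), FPGT was at rank 10, VPS50 at 18, USP16 at 73, LTN1 at 88, DPP8 at 160 and PGAP1 at 1582 (0.654). YTHDC1 was at rank 202 with 0.889, XRN1 at rank 91 with 0.912, YTHDF3 at rank 1011 with 0.669 and METTL14 at rank 1320 with 0.581.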

How the data were processed

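Poly(A) RNA of 24 libraries was reverse transcribed with random primers and sequenced, per the labels. The submitters' processing notes name the tools HTSeq 0.9.1, HISAT2 2.1.0 and fastp 0.22.0 and the build Sscrofa11.1. The deposited table gives raw counts per gene, FPKM values deposited by the authors, which were not used, and deposited gene lengths in bases (another unit). Strand settings are not given in the sources used here. Counts were tested with edgeR 4.0.16 in R 4.3.3: low counts filtered by group, TMM scaling, the quasi-likelihood F-test on group means of 12 libraries a tissue (24 between tissues), and Benjamini-Hochberg adjustment over all genes tested; "called" means an adjusted p under 0.05. CPM are TMM-scaled over 24 libraries and log2 CPM add a prior count of 2. Alternatives used DESeq2 1.42.0, limma-voom 3.58.1, other scaling and filters, omitted libraries, a replicate block, length offsets and marker covariates. Scripts were tested on simulated data. Named genes are the 10 genes in each comparison, up to 3 higher and 3 lower further m6A genes by adjusted p, with VIRMA, ZC3H13, METTL16, IGF2BP2 and HNRNPA2B1 for NCG, and the 5 genes most correlated with YTHDC2; FMR1, LRPPRC, SRSF10, AHCY and MTR in the ileum, XRN1 and CPSF6 in the colon and the values of MEIOC and RBM46 were added after their values were seen. The genes and lists were chosen with earlier results of these data known. All 20674 genes matched the RefSeq gene table of the same build by gene ID.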

Additional observations from a re-analysis of the deposited data

How the results depend on the processing

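Values of the 10 genes under all alternatives came to 2620, of which 28 lost a call, 17 gained one, 160 changed sign while not called in either fit, and 1 reversed with a call: METTL14 between the tissues, at -0.37 with the marker covariates. For NCG in the ileum the count of genes called was 1 with the replicate block and 1 without the FABP6-rich libraries (YTHDC2 in each), 3 with DESeq2 and 3 with the marker covariates (YTHDF3 as the third in each), and 1 to 2 when 1 library was left out; YTHDC2 was called in all 20 alternatives there. For HN against LF in the ileum the count was 2 with DESeq2, 0 with the replicate block, 0 from the 6 libraries alone, 0 without the FABP6-rich libraries and 0 to 1 when 1 library was left out. DESeq2 gave 1 for the ileum interaction. For NCG in the colon the count was 2 with the marker covariates, 1 without the 2 libraries low in enterocyte markers and 0 to 1 when 1 library was left out; for HN against LF in the colon it was 2 with the covariates. Between the tissues it was 2 with RLE scaling, 2 with DESeq2, 4 with the covariates, 0 without the FABP6-rich libraries, 2 without the 2 colon libraries, 0 with a replicate block by diet and number (YTHDF1 adjusted p = 0.0518), 0 in each single diet, and 0 to 2 when 1 library was left out. The cause was not tested. The omission of FABP6-rich libraries (above 500 CPM), of colon libraries with an enterocyte mean under 5 log2 CPM, and the block by diet and number were chosen after seeing the data. Over all genes, NCG in the ileum called 884, against 1812 with DESeq2, 2414 with the covariates and 598 without the FABP6-rich libraries; NCG in the colon called 0, against 497 with DESeq2 and 1413 with the covariates. Whether replicate numbers pair the samples is not known. Deviations of same-numbered libraries correlated above 0.1 in 8 of 18 ileum pairs and 7 of 18 colon pairs. For unlike numbers within a tissue the counts were 15 of 36 in the ileum and 11 of 36 in the colon. Between tissues on the same diet, they were 5 of 12 for like numbers (median 0.05) and 9 of 24 for unlike (median -0.07). These counts cannot show whether libraries share a sow. With the replicate block YTHDC1 had an adjusted p of 0.0506 for NCG in the ileum and YTHDC2 0.0630 for HN against LF; the fibre, interaction and colon diet counts stayed at 0. Of the 5 genes most like YTHDC2, 4 stayed among the first 5 by Spearman's rho and 2 in the ileum alone. The smallest count of the 10 genes was 99; how depth limits their comparisons was not tested.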
